A study of Rattus norvegicus with 10 samples.

Results

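Enzymes that process foreign compounds and reactive oxygen were examined by family. The samples were whole mammary glands of young female rats from a casein and a soy protein diet group. The families were chosen by gene symbol in the array annotation. They were cytochromes P450 of families Cyp1 to Cyp4, aldehyde dehydrogenases (Aldh), quinone reductases (Nqo), glutathione S-transferases (Gst), UDP-glycosyltransferases (Ugt) and sulfotransferases (Sult). Also included were superoxide dismutases (Sod), catalase (Cat), glutathione peroxidases (Gpx), peroxiredoxins (Prdx) and thioredoxin reductases (Txnrd). All these families comprised 110 genes, of 10411 genes with a probe set of their own on the array. Each gene was read from its brightest probe set. Signal was high enough for a test in 51 of these genes, and 59 lay below the filter, which was a mean log2 signal of 7.47 over all arrays.

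The glands came from female SD rats at postnatal day 21. Casein arrays (n = 5) represent the AIN-93G diet, a purified rodent diet, with casein as its protein, and soy arrays (n = 5) the same diet with soy protein isolate (SPI), both given from gestation day 4 to weaning. Arrays are called here by diet and label number (casein 6, 7, 10, 18 and 20, soy 147, 149, 155, 157 and 159). The labels mention RNA pools and several cRNA targets per pool, so the arrays may not each stand for 1 animal. P-values here reflect spread among samples that may be technical in part. Levels are log2 MAS5 signals, differences are soy minus casein on that scale, and signals of different probe sets are not set against each other.

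Xenobiotic metabolism runs in steps. P450s, aldehyde dehydrogenases and other oxidoreductases introduce or alter a reactive group, and transferases then attach glutathione, glucuronic acid or sulfate so that the product can be excreted. Superoxide dismutases convert superoxide to hydrogen peroxide, which catalase, glutathione peroxidases and peroxiredoxins remove, with reducing power from glutathione and thioredoxin. Many of these genes respond to a pair of sensors. The Ah receptor binds aromatic ligands and acts through xenobiotic response elements, with Cyp1a1, Cyp1b1 and Nqo1 as classic targets, and Nrf2 acts through antioxidant response elements, with Nqo1, Txnrd1 and several glutathione S-transferases among its targets.

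The letters of both elements near the start sites of these genes are shown because Cyp1b1 and Nqo1 are targets by which these pathways are often read, and Nqo2 carried the smallest p-value of the members. RefSeq sequence (GRCr8), covering 250 bases before to 50 bases after the start, was matched for 92 of the 110 genes. Windows on the gene's strand, 5′ to 3′, have the matched core in capitals, where GCGTG is the xenobiotic response element core (CACGC on the other strand):
Cyp1b1, chr6:21094474-21094498, plus strand: tcccgcccctCACGCcccacccctt
Cyp1b1, chr6:21094535-21094559, plus strand: tagagggatgGCGTGtcgcctctgg
Nqo1, chr19:52220263-52220287, minus strand: taggctgtggCACGCaggatctttc
Nqo2, chr17:31143700-31143724, minus strand: tgcctgccggCACGCtataggcatt

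The antioxidant response element core TGACNNNGC was searched in the same way, and windows of a glutathione S-transferase of the pi class, of the mu class and of the mitochondrial superoxide dismutase are shown as examples from the conjugating and antioxidant families, since these letters were not found in the windows of Nqo1, Nqo2, Cyp1b1 or Txnrd1:
Gstp1, chr1:210769748-210769776, minus strand: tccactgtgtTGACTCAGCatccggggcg
Gstm5, chr2:198219646-198219674, plus strand: caaggccaagTGACCACGCggagggcggg
Gstm5, chr2:198219706-198219734, plus strand: tcagtcgcgtTGACCCCGCccacagcgtc
Sod2, chr1:50050185-50050213, minus strand: ggcgctgccgGCAGGGTCAgcgcctagct

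Both strands were searched, and of 16 matches to TGACNNNGC in members' windows 1 overlapped a match to GCGTG. TGACNNNGC occurred in 15 of 92 member windows (16.3%), against 12.2% of 27457 promoters of the same length. Among tested genes it occurred in 12 of 44 member windows (27.3%), against 15% of 6016. GCGTG occurred in 26 of 92 member windows (28.3%), against 31.1% of all promoters, and in 22 of 44 tested members (50%), against 51.4% of tested genes. A match is a run of letters in this window and not a measured binding site. The promoters of Cyp1a1, Cyp2c6v1, Cyp2a2, Cyp4v3, Cyp4a1, Cyp4f4, Cyp4f17, Aldh2, Aldh18a1, Aldh3a1, Gstt2, Gstt1, Ugt2a1, Sult4a1, Sult1e1, Sod3, Gpx8 and Prdx6 were not analysed here.

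Which families were measurable differed. Of 40 P450 genes 7 were tested, namely Cyp1b1, Cyp2d4, Cyp2j4, Cyp2t1, Cyp4b1, Cyp4v3 and Cyp4f6, and 33 lay below the filter, including all 4 Cyp3 genes, whose products handle many drugs and steroids in liver. None of 7 Ugt genes with a probe set of their own and 2 of 13 Sult genes were tested. Both probe sets shared by the Ugt1a genes passed the filter but name no single gene, so they are not counted here. By contrast, 10 of 13 Aldh genes, 13 of 16 Gst genes, both Nqo genes and 17 of 19 antioxidant genes were tested. Without detection calls, a dim gene is only known to lie below the filter.

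No member passed the test between the diets. In limma with Benjamini-Hochberg adjustment over 9520 probe sets, 0 of 51 members had an adjusted p under 0.05, as did 0 of all probe sets (0%), and the smallest adjusted p was 0.98. At an unadjusted p under 0.05 there were 5 members (9.80%), 3 higher in soy (Cyp2d4, Gpx1 and Sult5a1, background 2.31%) and 2 lower (Nqo2 and Aldh4a1, background 2.24%), against 4.55% of all tested probe sets. That count was 3 without casein 7 or without soy 159 and 9 without soy 149, with no background share given for those settings. Nqo2 was the only tested member whose diets did not overlap, a pattern shown by 0.798% of tested probe sets. Differences were positive for 26 and negative for 25 members, with a median of 0.0032, against -0.010 over all tested probe sets, where 4505 were positive and 5015 negative.

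**Figure D1:**
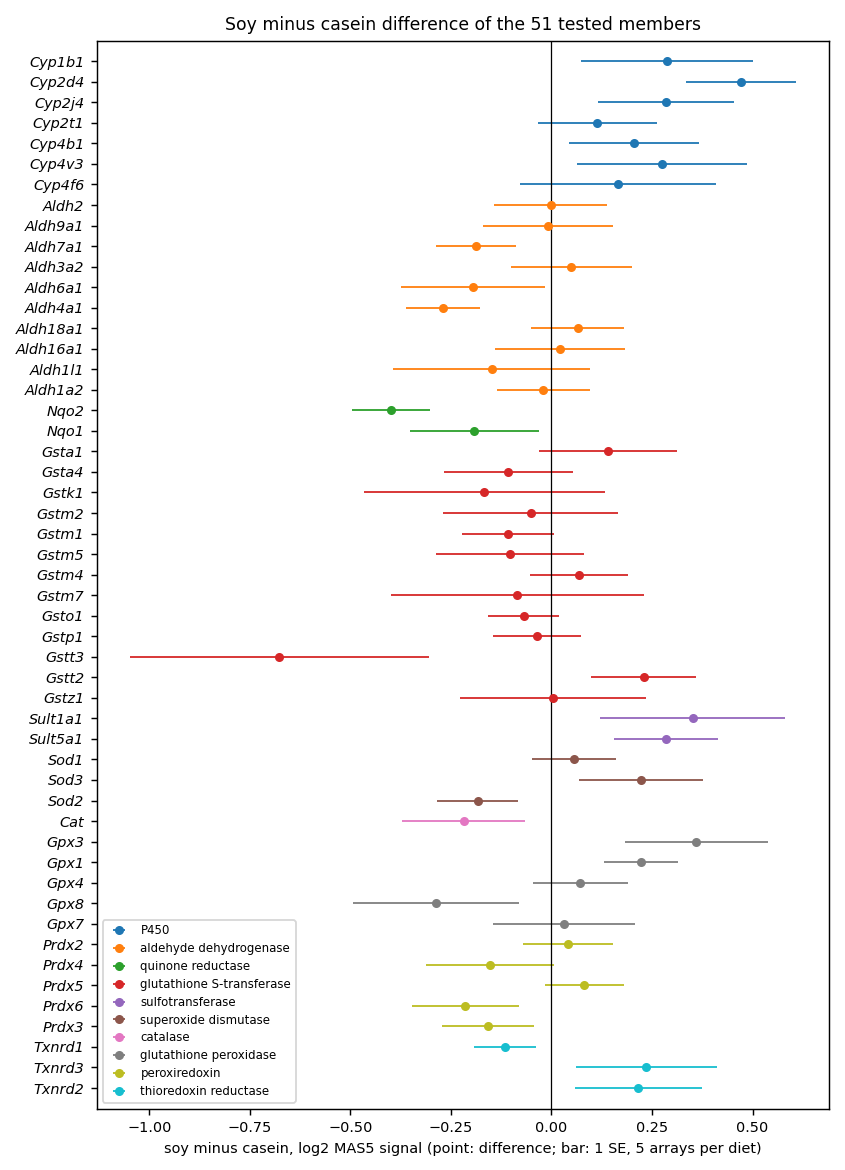
Soy minus casein difference in log2 MAS5 signal (horizontal axis) of each of the 51 tested members, coloured by enzyme family, with bars of 1 SE (5 arrays per diet). All 7 P450s and both sulfotransferases lie right of 0 and both quinone reductases left of it, but no member passed the adjusted test.

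**Figure D2:**
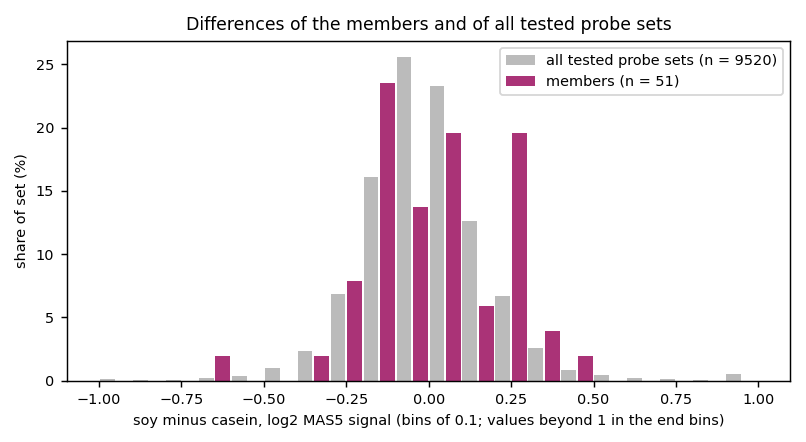
Share of the 51 members and of the 9520 tested probe sets (vertical axis, percent) by soy minus casein difference in bins of 0.1 on the log2 scale. The members have a median of 0.0032, and the bin from -0.2 holds 23.5% of members and 16.1% of probe sets, the bin from 0.2 19.6% and 6.67%.

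Markers of other tissues differed between the arrays. Alternative fits used muscle and lymph node covariates or left out the arrays concerned. Beyond that, the part of these tissues in the members' values was not tested. The mean of 16 tested skeletal muscle markers (of 20 on the array) was 11.74 to 13.01 in casein 6, soy 147, soy 149 and soy 157, and 6.92 to 8.35 in the other 6 arrays. The mean of 14 tested lymph node markers (of 15) was 6.91 in casein 6 and 6.69 in soy 149, and 9.41 to 10.19 elsewhere. Luminal epithelial markers (6 tested of 10) ran from 6.48 in casein 6 to 10.60 in casein 7. Nerve and Schwann cell markers (8 tested of 9) were at 9.30 to 9.73 in casein and 9.55 to 10.51 in soy. Their means were 9.49 ± 0.18 (SD) and 9.89 ± 0.39 (SD). Adipocyte markers (11 of 11 tested) were high everywhere, from 10.72 in soy 147 to 11.81 in soy 149, and 2 tested skin markers had a mean of 11.58 in soy 147 and 7.19 to 8.05 elsewhere. Of 9 liver markers on the array 2 were tested, Alb and Serpina1. Alb was at 7.30 to 9.65, with a difference of -0.17 ± 0.43 (SE). Serpina1 was at 6.88 to 7.32 in casein and 7.42 to 8.89 in soy. Its difference was 0.64 ± 0.26 (SE, limma, unadjusted p = 0.029). Apoa1, below the filter, was at 1.49 to 2.91. The actin 3′ to 5′ ratio was 1.22 to 1.57. In such bulk samples fewer cells of a type and less RNA per cell cannot be told apart.

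Soy 149 stood apart for these families. It held the highest signal of 20 of the 51 tested members (39.2%), against 11.3% of all tested probe sets, among them 4 P450s, both tested sulfotransferases, Cat, Gpx3, Gpx4, Sod3, Prdx5 and Prdx6. After subtracting each gene's mean over all arrays, the members had a median of 0.20 in soy 149, with the remaining arrays from -0.11 to 0.083, while that of all tested probe sets in soy 149 was -0.033. Soy 149 also had the highest adipocyte, endothelial (10.07) and nerve (10.51) marker means and the lowest lymph node mean, and the part of these cells in the members' signal was not tested. Casein 6 held the highest signal of 9 members (17.6%, against 13.4% of all tested probe sets), such as Gpx7, Gpx8, Prdx4 and Gstm7. It held the lowest of 9 (17.6%, against 19.2%), such as Cyp1b1, Gpx1, Sod1 and Txnrd2, so both shares were near those of all probe sets.

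**Figure D3:**
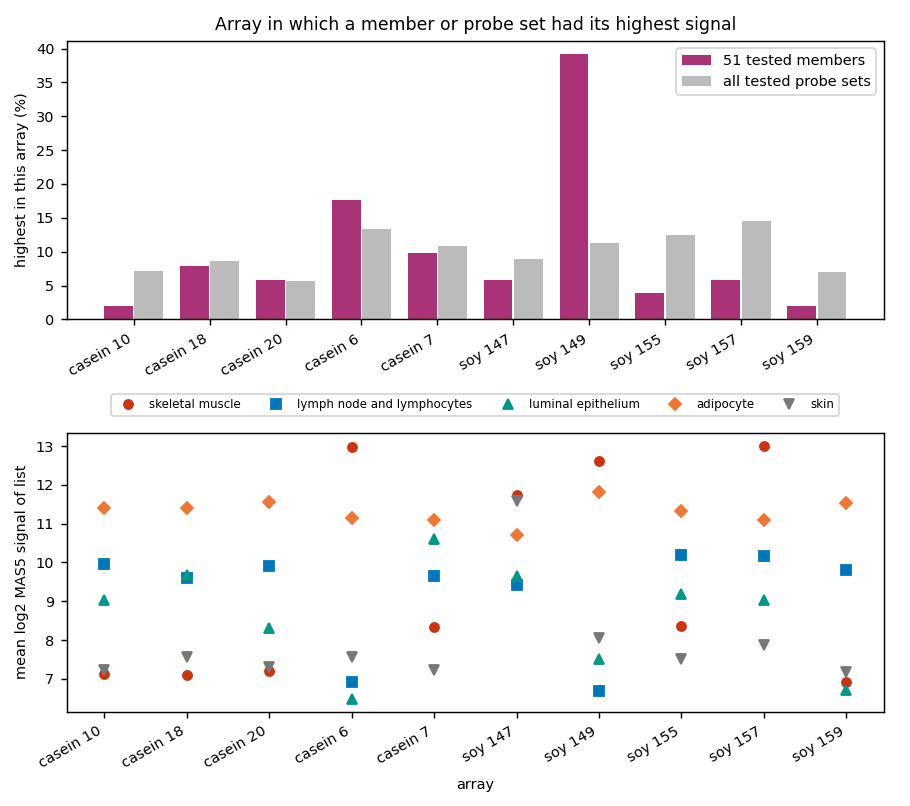
Upper panel: share (percent) of the 51 tested members and of the 9520 tested probe sets whose highest signal fell in each array. Lower panel: mean log2 MAS5 signal of marker lists for 5 cell or tissue types in the same arrays. Soy 149 holds the highest signal of 39.2% of members, and it has the lowest lymph node and highest adipocyte mean.

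**Figure D4:**
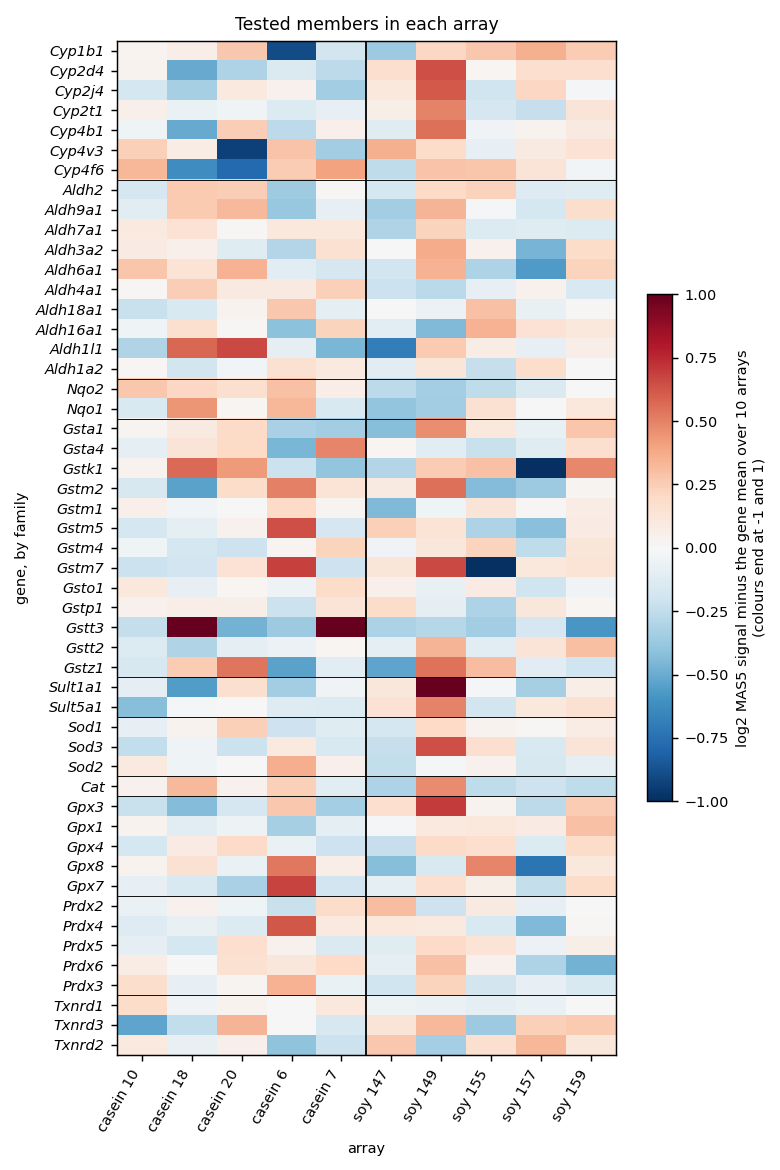
Log2 MAS5 signal of each tested member (rows, by family) in each array (columns), minus the gene's mean over the 10 arrays, with colours ending at -1 and 1. Red cells gather in soy 149 and in part of casein 6, and Gstt3 is high in casein 18 and casein 7 alone.

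The P450s oxidise foreign compounds, steroids and fatty acids. All 7 tested P450 genes had positive differences, with a median of 0.28 and a range of 0.11 to 0.47. Over all tested probe sets 4505 of 9520 were positive. An unadjusted limma p under 0.05 was found for 1 of the 7 P450s (14.3%, against 4.55% of all tested probe sets). All 7 stayed positive under quantile normalization and median centring, and 6 of 7 did without casein 20 or without both casein 6 and soy 149. The median was 0.17 without soy 149 and 0.15 with array weights. Without the 4 arrays of highest muscle signal it was 0.15, with 7 of 8 tested P450s positive and 0 with an unadjusted p under 0.05. Cyp2d4, a member of a drug-metabolising subfamily that is also expressed in brain, was at 8.95, 8.42, 8.61, 8.78 and 8.66 in casein 10, 18, 20, 6 and 7. In soy 147, 149, 155, 157 and 159 it was at 9.09, 9.57, 8.94, 9.09 and 9.09. The 5 soy values all exceeded the casein mean, and the diets overlapped only at casein 10 and soy 155. The difference was 0.47 ± 0.14 (SE, 5 arrays per diet), or 1.39-fold, with an unadjusted p of 0.0053 and an adjusted p of 0.98 in limma. A second Cyp2d4 probe set gave 0.71, and the difference was 0.37 without soy 149 and 0.36 without the 4 arrays of highest muscle signal, where the unadjusted limma p was 0.053. Genes of the Cyp2d cluster are similar in sequence, so this signal may include close relatives.

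Cyp1b1, which hydroxylates estrogens and aromatic hydrocarbons outside the liver and is induced through the Ah receptor, did not differ beyond its spread. It was at 8.58, 8.62, 8.82, 7.65 and 8.37 in casein 10, 18, 20, 6 and 7, and at 8.19, 8.76, 8.82, 8.91 and 8.80 in soy 147, 149, 155, 157 and 159. Casein 6 was lowest and the other values of the diets overlapped. The difference of 0.29 ± 0.21 (SE) was 0.099 without casein 6 (limma, unadjusted p = 0.54) and 0.41 without soy 147, the lowest soy array. Cyp1a1, the most responsive Ah receptor target in many tissues, had signals of 2.14 to 3.23 in casein and 2.32 to 4.52 in soy, far below the filter, and Cyp1a2 4.47 to 6.55 and 4.42 to 7.37.

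None of the remaining tested P450s had an unadjusted p under 0.05. Differences were 0.28 ± 0.17 (SE) for Cyp2j4, an arachidonic acid epoxygenase, 0.21 ± 0.16 (SE) for Cyp4b1, a fatty acid hydroxylase, and 0.28 ± 0.21 (SE) for Cyp4v3, another fatty acid hydroxylase. Cyp4f6, which hydroxylates leukotrienes and fatty acids, stood at 0.16 ± 0.24 (SE) and Cyp2t1 at 0.11 ± 0.15 (SE). Cyp4v3 rested on casein 20, where it was 7.87, with the rest at 8.46 to 9.16, and without it the difference was 0.077. Cyp4f6 was lowest in casein 18 and casein 20, at 7.55 and 7.40, and its difference was -0.0081 without casein 20. Without soy 149 Cyp2j4, Cyp2t1 and Cyp4b1 stood at 0.17, 0.0049 and 0.094, and Cyp2t1 at -0.016 without both casein 6 and soy 149.

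Below the filter, 27 of 33 P450 genes also had positive differences (81.8%), with a median of 0.19. Dim probe sets as a whole leaned the same way, with 63.6% of 6346 positive and a median of 0.12, and their mean signal peaked in soy 157 at 5.81, the rest spanning 5.37 to 5.61. The 3 brightest Cyp3 genes were Cyp3a9, at 4.92 to 5.90 in casein and 5.91 to 6.47 in soy, Cyp3a18, at 2.85 to 4.72 and 2.63 to 5.96, and Cyp3a23-3a1, at 2.20 to 4.98 and 1.38 to 4.34. Cyp3a9 did not overlap between the diets, but no order is read from signals this dim.

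Aldehyde dehydrogenases oxidise aldehydes from alcohol, lipids, amino acids and retinoids. Of 10 tested genes 7 had negative and 3 positive differences, with a median of -0.015. An unadjusted limma p under 0.05 was found for 1 of them (10%, against 4.55% of all tested probe sets). With covariates for muscle and lymph node, and also without soy 147, 7 were positive, so the direction of the family depends on the setting. Aldh4a1, the mitochondrial enzyme of proline breakdown, was at 9.54, 9.78, 9.62, 9.61 and 9.76 in casein 10, 18, 20, 6 and 7. It was at 9.31, 9.26, 9.45, 9.57 and 9.38 in soy 147, 149, 155, 157 and 159. Each soy value was under the casein mean, and soy 157 alone reached into the casein range. The difference was -0.27 ± 0.092 (SE, 5 arrays per diet), with an unadjusted p of 0.013 and an adjusted p of 0.98 in limma, and it ran from -0.31 to -0.24 when single arrays were left out.

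In the main limma fit no other tested aldehyde dehydrogenase had an unadjusted p under 0.05. Aldh7a1, of lysine breakdown, was at 10.69 to 10.83 in casein and at 10.38 to 10.56 in 4 soy arrays, with soy 149 at 10.90, and its difference was -0.19 ± 0.10 (SE). Without soy 149 it was -0.27 (limma, unadjusted p = 0.0075). Aldh2, the mitochondrial acetaldehyde dehydrogenase, had a difference of -0.0020 ± 0.14 (SE) and Aldh9a1, of carnitine synthesis, of -0.0096 ± 0.16 (SE). Aldh1l1, a folate enzyme, varied within both diets, from 8.72 to 9.84 in casein and 8.49 to 9.44 in soy, and its difference of -0.15 ± 0.24 (SE) was 0.0050 without soy 147.

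Aldh1a1, a retinaldehyde dehydrogenase below the filter, was singled out after its values were seen. It was at 9.27 in casein 6 and 7.67, 7.96 and 7.95 in soy 147, 149 and 157, the 4 arrays of highest muscle signal, and 6.10 to 6.77 in the other 6. The part of muscle in this signal was not tested. Aldh5a1, of GABA breakdown, likewise chosen after its values were seen, was at 5.84 to 6.82 in casein, 6.89 in soy 147 and 4.29 to 4.78 in the other soy arrays.

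Quinone reductases reduce quinones to hydroquinones without a radical step. Nqo2, which uses dihydronicotinamide riboside as its donor, had the smallest p-value of the 51 members. Its signal was 8.96, 8.90, 8.85, 8.99 and 8.76 in casein 10, 18, 20, 6 and 7, and 8.44, 8.35, 8.44, 8.55 and 8.69 in soy 147, 149, 155, 157 and 159. Every soy array lay below every casein array, the nearest being soy 159 and casein 7. The means were 8.89 ± 0.091 (SD, n = 5) and 8.49 ± 0.13 (SD, n = 5), a difference of -0.40 ± 0.098 (SE), or 1.32-fold, with an unadjusted p of 0.0016 and an adjusted p of 0.98 in limma. Left-out arrays moved it between -0.45 and -0.36, and over all 21 alternatives the unadjusted limma p ran from 0.00093 to 0.044.

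Nqo1, the NAD(P)H quinone reductase induced through Nrf2 and the Ah receptor, showed no such separation. It was at 8.38, 8.98, 8.55, 8.87 and 8.38 in casein 10, 18, 20, 6 and 7, and at 8.14, 8.19, 8.68, 8.54 and 8.64 in soy 147, 149, 155, 157 and 159. Soy 147 and soy 149 were lowest and the other arrays overlapped. The difference was -0.19 ± 0.16 (SE; limma, unadjusted p = 0.26). Without the 4 arrays of highest muscle signal it was 0.090, from 4 casein and 2 soy arrays.

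**Figure D5:**
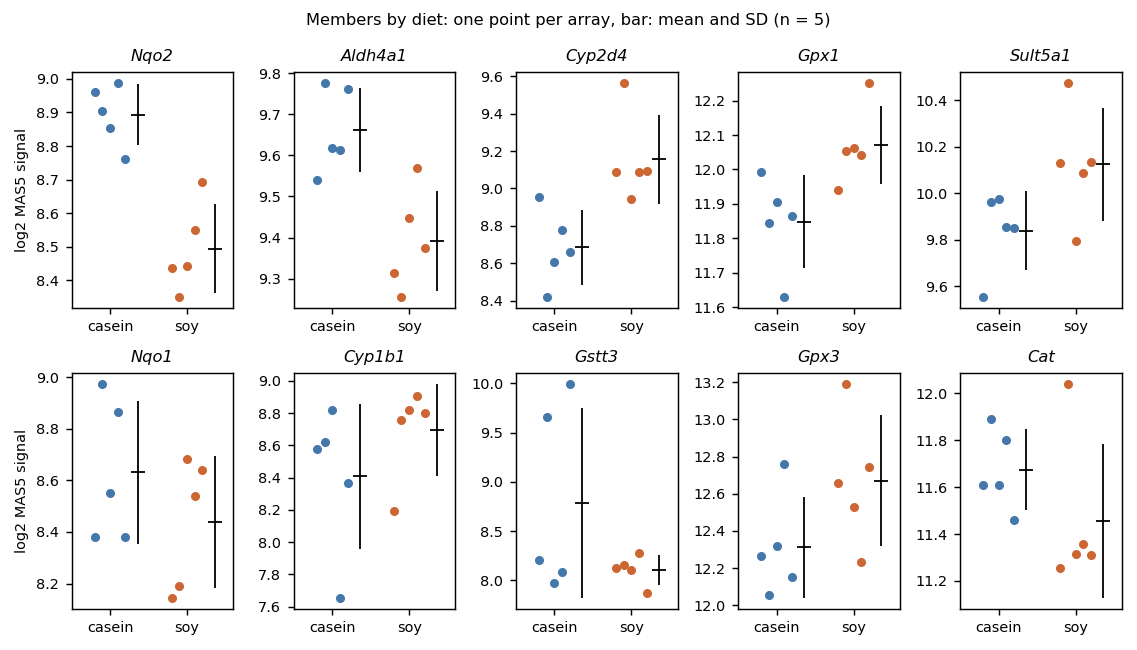
Log2 MAS5 signal of 10 members by diet, with 1 point per array and a bar for the mean and SD (n = 5). Nqo2 separates the diets, Cat has 4 low soy arrays and 1 high one (soy 149), and Gstt3 is high in 2 casein arrays.

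Glutathione S-transferases conjugate electrophiles to glutathione and form several classes. Of 13 tested genes 9 had negative and 4 positive differences, with a median of -0.069, and 0 had an unadjusted p under 0.05. In the alpha class the differences were 0.14 ± 0.17 (SE) for Gsta1 and -0.11 ± 0.16 (SE) for Gsta4, an enzyme of lipid peroxidation products, while Gsta3 lay below the filter at 2.26 to 6.19. In the mu class they were -0.11 ± 0.11 (SE) for Gstm1, -0.052 ± 0.22 (SE) for Gstm2, -0.10 ± 0.18 (SE) for Gstm5 and -0.085 ± 0.31 (SE) for Gstm7. Gstm5 was highest in casein 6, at 9.56, with the rest at 8.50 to 9.16, and its difference was 0.046 without it. Gstm7 was lowest in soy 155, at 6.54 against 7.56 to 8.45 elsewhere.

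Among the other classes, Gstp1 of the pi class and Gsto1 of the omega class varied little, with differences of -0.036 ± 0.11 (SE) and -0.069 ± 0.088 (SE). Gstk1 of the kappa class, found in mitochondria and peroxisomes, was at 7.68 in soy 157 and 8.44 to 9.40 elsewhere, and its difference of -0.17 ± 0.30 (SE) was 0.10 without soy 157. Gstz1, an enzyme of tyrosine breakdown, stood at 0.0032 ± 0.23 (SE).

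The theta class held the tested member with the largest spread within the diets. Gstt3 was at 8.21, 9.66, 7.98, 8.09 and 10.00 in casein 10, 18, 20, 6 and 7, and at 8.13, 8.16, 8.10, 8.28 and 7.87 in soy 147, 149, 155, 157 and 159. Casein 18 and casein 7 were high, and the other 3 casein arrays lay within the soy range. The difference of -0.68 ± 0.37 (SE; limma, unadjusted p = 0.094) was -0.37 without casein 7. Luminal epithelial markers had a mean of 9.68 in casein 18 and 10.60 in casein 7, the highest means of the 10 arrays, and 9.66 in soy 147, where Gstt3 was at 8.13, and the part of epithelium was not tested. Gstt1, below the filter, was at 8.52 in casein 18 and 8.35 in casein 7 and at 3.74 to 8.03 in the others. Gstt2 stood at 0.23 ± 0.13 (SE), with every soy array above the casein mean.

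Of the remaining conjugating enzymes, sulfotransferases transfer sulfate to phenols, steroids and xenobiotics. Sult5a1 was at 9.55, 9.96, 9.98, 9.86 and 9.85 in casein 10, 18, 20, 6 and 7, and at 10.13, 10.48, 9.79, 10.09 and 10.13 in soy 147, 149, 155, 157 and 159. In 4 of 5 soy arrays it exceeded every casein array, with soy 155 inside the casein range. The difference was 0.29 ± 0.13 (SE, 5 arrays per diet), with an unadjusted p of 0.049 and an adjusted p of 0.98 in limma, and 0.20 without soy 149 (limma, unadjusted p = 0.12). Sult1a1, a phenol sulfotransferase, was at 11.24 to 11.96 in casein, 12.85 in soy 149 and 11.46 to 11.91 in the other soy arrays. Its difference of 0.35 ± 0.23 (SE) was 0.13 without soy 149. Sult4a1, a brain-enriched form, lay below the filter at 6.52 to 7.92. The Ugt genes with a probe set of their own lay below it too. The brightest of them were Ugt8, a ceramide galactosyltransferase, at 6.07 to 7.53, Ugt2b7 at 4.80 to 6.67 and Ugt2a1 at 5.03 to 6.42. Both probe sets shared by the Ugt1a genes passed the filter, with differences of 0.096 ± 0.16 (SE) and -0.19 ± 0.16 (SE), and they name no single gene.

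Of 17 tested antioxidant genes 10 had positive and 7 negative differences, with a median of 0.042. An unadjusted limma p under 0.05 was found for 1 of them (5.88%, near the 4.55% of all tested probe sets). None of the 3 superoxide dismutases had an unadjusted p under 0.05. Cytosolic Sod1 had a difference of 0.056 ± 0.10 (SE), extracellular Sod3 of 0.22 ± 0.15 (SE) and mitochondrial Sod2 of -0.18 ± 0.10 (SE). For Sod2 all 5 soy values were under the casein mean, at 9.97 to 10.27 against 10.18 to 10.58. Sod3 was highest in soy 149, at 11.96, and its difference was 0.090 without that array. The sign of Sod1 turned without casein 6 and soy 149, at -0.032.

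Catalase, the peroxisomal enzyme that splits hydrogen peroxide, was at 11.61, 11.89, 11.61, 11.80 and 11.46 in casein 10, 18, 20, 6 and 7. In soy 147, 149, 155, 157 and 159 it was at 11.26, 12.04, 11.31, 11.36 and 11.31. Thus 4 soy arrays lay below every casein array and soy 149 above all of them. The difference of -0.22 ± 0.15 (SE; limma, unadjusted p = 0.18) was -0.36 without soy 149 (limma, unadjusted p = 0.0039).

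Glutathione peroxidases reduce peroxides with glutathione. Of 5 tested genes 4 had positive differences, with a median of 0.072. All 5 were positive without the 4 arrays of highest muscle signal, with a median of 0.25. Without soy 149 3 were positive, with a median of 0.033. Gpx1, the cytosolic selenoenzyme, was at 11.99, 11.85, 11.90, 11.63 and 11.87 in casein 10, 18, 20, 6 and 7, and at 11.94, 12.05, 12.06, 12.04 and 12.25 in soy 147, 149, 155, 157 and 159. Each soy value exceeded the casein mean, and casein 10 overlapped soy 147. The difference was 0.22 ± 0.093 (SE, 5 arrays per diet), with an unadjusted p of 0.034 and an adjusted p of 0.98 in limma, and 0.17 without casein 6 (limma, unadjusted p = 0.086). Gpx3, the secreted plasma form, was at 12.26, 12.06, 12.32, 12.76 and 12.15 in casein 10, 18, 20, 6 and 7. It was at 12.66, 13.19, 12.53, 12.23 and 12.74 in soy 147, 149, 155, 157 and 159. Casein 6 and soy 157 lay on the other diet's side. Its difference was 0.36 ± 0.18 (SE; limma, unadjusted p = 0.066). It was 0.47 without casein 6 (limma, unadjusted p = 0.015) and 0.23 without soy 149 (limma, unadjusted p = 0.16). Over the 21 alternatives the unadjusted limma p of Gpx3 ran from 0.00085 to 0.16. Gpx4, which reduces lipid peroxides in membranes, stood at 0.072 ± 0.12 (SE). Gpx7 and Gpx8, of the endoplasmic reticulum and named here, with Prdx3 and Prdx6, only to complete their families, had differences of 0.031 ± 0.18 (SE) and -0.29 ± 0.21 (SE). Gpx2, the epithelial form below the filter, singled out after its values were seen, was highest in soy 147, at 8.66 against 6.11 to 7.83, the array with the highest skin marker mean.

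Peroxiredoxins reduce peroxides through a reactive cysteine and are recharged by thioredoxin or glutathione. Of 5 tested genes 3 had negative and 2 positive differences, and 0 had an unadjusted p under 0.05. Values were 0.042 ± 0.11 (SE) for cytosolic Prdx2, -0.16 ± 0.11 (SE) for mitochondrial Prdx3, -0.15 ± 0.16 (SE) for Prdx4 of the endoplasmic reticulum, 0.081 ± 0.098 (SE) for Prdx5 and -0.21 ± 0.13 (SE) for Prdx6. Prdx4 was highest in casein 6, at 11.80 against 10.74 to 11.29, and stood at -0.017 without it. Prdx1 shares its probe set with Prdx1l1, which had a difference of -0.0012 ± 0.096 (SE). Among thioredoxin reductases, cytosolic Txnrd1, an Nrf2 target, had the smallest spread of the tested members, at 9.87 to 10.09 in casein and 9.81 to 9.91 in soy. Its difference was -0.12 ± 0.078 (SE). A second Txnrd1 probe set varied more, at 8.15 to 8.67 in casein and 8.04 to 8.82 in soy, and gave -0.078 ± 0.16 (SE). Differences of mitochondrial Txnrd2 and of Txnrd3 were 0.22 ± 0.16 (SE) and 0.24 ± 0.18 (SE).

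The regulators and partners of these enzymes were read from lists of pathway genes. In the Ah receptor list, 5 of whose genes are also members, 5 of 11 genes on the array were tested, 0 of them with an unadjusted p under 0.05, and the median difference was 0.050. Ahr itself, at means of 7.42 and 7.44 in casein and soy, and its partner Arnt lay just below the filter. Tiparp, a direct target of the receptor, had a difference of 0.050 ± 0.14 (SE). In the Nrf2 list, 2 of whose genes are also members, 18 of 23 genes were tested, 9 positive and 9 negative, with a median of 0.011. Nfe2l2, which encodes Nrf2, stood at -0.12 ± 0.13 (SE), its inhibitor Keap1 at -0.0067 ± 0.13 (SE) and the target Hmox1 at -0.061 ± 0.22 (SE). Of this list 3 genes (16.7%, against 4.55% of all tested probe sets) had an unadjusted p under 0.05 in limma, each with an adjusted p of 0.98. These were Me1, malic enzyme, at -0.99 ± 0.30 (SE), Mafk, a small Maf partner of Nrf2, at 0.33 ± 0.10 (SE), and Cbr1, a carbonyl reductase, at 0.56 ± 0.21 (SE).

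Of the lists for supply and export, nuclear receptors and P450 electron supply had 8 of 12 genes tested, with 6 positive, and 1 gene (12.5%, against 4.55% of all tested probe sets) had an unadjusted p under 0.05 in limma. It was Rxrb, a retinoid X receptor, with a difference of 0.34 ± 0.12 (SE) and an adjusted p of 0.98. Por, the reductase that feeds electrons to P450s, stood at 0.076 ± 0.19 (SE), and the xenobiotic receptors Nr1i2 and Nr1i3 lay below the filter. Genes of glutathione and thioredoxin supply (15 of 18 tested, 10 positive) had a median of 0.052, with Gclc, the catalytic subunit of the first glutathione-synthesis enzyme, at 0.23 ± 0.16 (SE). Other conjugating and hydrolysing enzymes (15 of 18 tested, 11 positive) had a median of 0.053, with the microsomal transferase Mgst1 at 0.29 ± 0.23 (SE). Drug efflux transporters (6 of 11 tested, 4 positive) had a median of 0.080. In the supply and the efflux list 0 genes had an unadjusted p under 0.05. In the conjugating list 1 gene did (6.67%, against 4.55% of all tested probe sets), Cbr1.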

How the data were processed

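The deposited table holds 1 column per array of linear intensity values. The authors made these signals with MAS5, per the submitters' processing notes, which name no version here. Every array had a 2% trimmed mean of 500.1 and that scaling was kept. Signals under 1 were set to 1 and log2 was taken. Of 15923 probe sets 57 controls were left out, and 12783 named 1 gene, 312 several and 2771 none. Gene identifiers of 109 of 110 members were found in the RefSeq table (GRCr8). Probe sets with a mean log2 signal at or above the 40th percentile, 7.47 (a signal of 177), were tested, 9520 in all.

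The diets were compared in R 4.3.3 by limma 3.58.1, using lmFit and then eBayes with a mean-variance trend. Tests were two-sided, Benjamini-Hochberg adjustment ran over all tested probe sets, and the threshold was 0.05. The steps were tested on simulated data. The number of arrays limits the precision: the median SE of a difference was 0.14 for all tested probe sets and 0.15 for members. Members, lists and named genes (the up to 3 brightest of each family, those with an unadjusted p under 0.05, the 10 of largest spread and 8 fixed genes) were chosen with earlier results of these data known. Normalization, filter, offset, variance model, array weights, covariates, probe set choice and samples were varied. Probe sets naming several genes, 8 of them with a family member, belong to no member. The labels give no batch.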

Additional observations from a re-analysis of the deposited data

Results flagged for a closer look

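In 104 groups (52 named members in each diet), 7 had a highest or lowest array set far apart from the other 4, where chance gives about 1 in 20, or 5.2. Among tested members these were Cyp1b1, low in soy 147 at 8.19, Cyp2d4, high in soy 149 at 9.57, Gstm5, high in casein 6 at 9.56, Gstp1, low in casein 6 at 10.84, Cat, high in soy 149 at 12.04, and Txnrd3, low in soy 155 at 8.18. Gsta3, which lies below the filter, was low in casein 18 at 2.49.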

How the results depend on the processing

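The limma count of probe sets with an adjusted p under 0.05 was 0 (433 had an unadjusted p under 0.05), and 0 under the 20 alternatives for which it was counted, all but averaging the probe sets of each gene. The count of members with an unadjusted p under 0.05, 5 of 51, was 3 with median centring, 9 with no filter (110 tested), 8 with array weights, 10 with muscle and lymph node covariates, 8 without the 4 arrays of highest muscle signal, and 3 to 9 when single arrays were left out. The share over all probe sets is given for the main fit alone, so these counts are not read as a gain or loss against background. Nqo2 and Aldh4a1 had an unadjusted limma p under 0.05 in all 21 alternatives, Cyp2d4 in 20, Gpx1 in 13 and Sult5a1 in 10. The members' median of 0.0032 ran from -0.0379 (without soy 149) to 0.079 (with the covariates), so its sign depended on the setting. Of 41 named tested members 24 kept their sign throughout and 33 moved over 1.5 times or turned when 1 array was left out. Of named tested members whose difference exceeded its SE, Nqo1 alone turned in sign, at 0.090 without the 4 arrays of highest muscle signal; the cause was not tested. No paired analysis was possible because the diets share no replicate numbers. Probe sets of dim members lack a background measure.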
